A study of Homo sapiens with 8 samples.

Results

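Glycolysis and the cellular answer to low oxygen share many genes, and 43 of them were followed here in mammary epithelial cells treated with ginkgolic acid, an inhibitor of SUMO conjugation. The 43 genes were chosen by symbol: 2 glucose transporters, 16 glycolytic enzymes, 4 regulators of glycolytic flux, 2 lactate transporters, 17 other hypoxia-responsive genes and the 2 alpha subunits of the hypoxia-inducible factors (HIF). They stand among 43392 gene symbols kept from the study's tables. The study had 8 samples, not said to be separate cultures, in 4 groups of 2: NOTCH1-labelled cells with ginkgolic acid, NOTCH1-labelled cells with DMSO, MCF10A cells with ginkgolic acid and MCF10A cells with DMSO. Ginkgolic acid was given at 30 µM for 3 days, and DMSO, its solvent, for the same time. MCF10A is an immortalized breast epithelial line of human origin that does not form tumours, and per the labels the NOTCH1-labelled cells are MCF10A that overexpress the NOTCH1 intracellular domain. The labels name no promoter or vector for that insert and no clone. All groups grew in the same medium with horse serum, insulin, cholera toxin, epidermal growth factor and hydrocortisone, and the labels name no change of oxygen in any group.

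As background, glycolysis splits glucose into pyruvate in a chain of cytosolic reactions, and lactate dehydrogenase turns pyruvate into lactate when it is not passed to the mitochondria. In normal oxygen, prolyl hydroxylases mark the HIF alpha subunits for destruction. When oxygen is low, HIF accumulates, binds a short core sequence near its target genes and raises transcription of glucose transporters, most glycolytic enzymes, angiogenic factors and its own hydroxylases. Many of these genes also answer to other stress pathways.

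The total RNA was sequenced, and the values are FPKM, fragment numbers scaled by transcript length and by the mapped fragments of a library, with 1 value per gene and group. The spread between the 2 samples of a group is therefore not known, no difference could be tested, and every ratio below is a description. "Higher" and "lower" without a number mean a ratio of 2-fold or more, which is 1 or more on the log2 scale, unless a sentence gives the values. Of the 43 genes, 40 had a row of their own in the NOTCH1-labelled table and 39 in the MCF10A table, and all of these reached 1 FPKM in at least 1 group. ENO2, PFKFB4 and LOXL2 shared rows with a neighbouring gene in both tables, and P4HA1 did so in MCF10A. Across all genes the median log2 ratio of ginkgolic acid over DMSO was 0.14 in NOTCH1-labelled and −0.11 in MCF10A cells, over genes that reached 1 FPKM with ginkgolic acid and with DMSO. NOTCH1 itself was at 12.4 FPKM with ginkgolic acid against 5.03 with DMSO in the NOTCH1-labelled cells, and at 6.18 with ginkgolic acid against 11.4 with DMSO in MCF10A, so that across 2 separately normalized tables the levels with DMSO go against the label. Basal epithelial markers were at 1 FPKM or more wherever they had a row (7 of 8 in the NOTCH1-labelled and 6 of 8 in the MCF10A table), with summed levels of 1122 FPKM with ginkgolic acid against 1338 with DMSO in NOTCH1-labelled cells and 330.3 with ginkgolic acid against 403 with DMSO in MCF10A. KRT5, at 614 FPKM with ginkgolic acid against 990 with DMSO in NOTCH1-labelled cells, had no row of its own in MCF10A. The sums of the lines therefore cover different genes. The markers did not share 1 direction, and EPCAM was at 223 FPKM with ginkgolic acid against 91.6 with DMSO in NOTCH1-labelled cells. In MCF10A EPCAM was at 110 FPKM with ginkgolic acid against 41.2 with DMSO. The 4 marker lists of leukocytes, endothelium, fibroblasts and adipocytes, of 4 genes each, summed to between 1.02 and 16.4 FPKM in each group. FABP4 was listed at 0 in MCF10A with DMSO, and no other of these markers was at 0. The part of other cell types in the results was not tested, and in bulk RNA fewer cells of a type and less RNA per cell cannot be told apart.

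In all, 11 of 40 genes were higher with ginkgolic acid in NOTCH1-labelled cells and 1 was lower. Of all 19619 genes with a ratio in that table, 18.9% were higher and 19.0% lower. In MCF10A, 7 of 39 were higher and 8 lower, where 24.2% of 17791 genes were higher and 15.4% lower. Among genes with at least 5 FPKM in a group, 19.5% were higher and 9.61% lower in NOTCH1-labelled cells, and 12.4% higher and 17.0% lower in MCF10A. The count of lower genes in NOTCH1-labelled cells, 1 of 40, was below both backgrounds, and that of higher genes, 11 of 40, was above both. In MCF10A the count of higher genes, 7 of 39, lay between the backgrounds, and that of lower genes, 8 of 39, above both. The members did not share 1 direction. A group of 6 genes was higher in both lines, and most glycolytic enzymes were near or above the DMSO level in NOTCH1-labelled cells and near or below it in MCF10A.

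**Figure D1:**
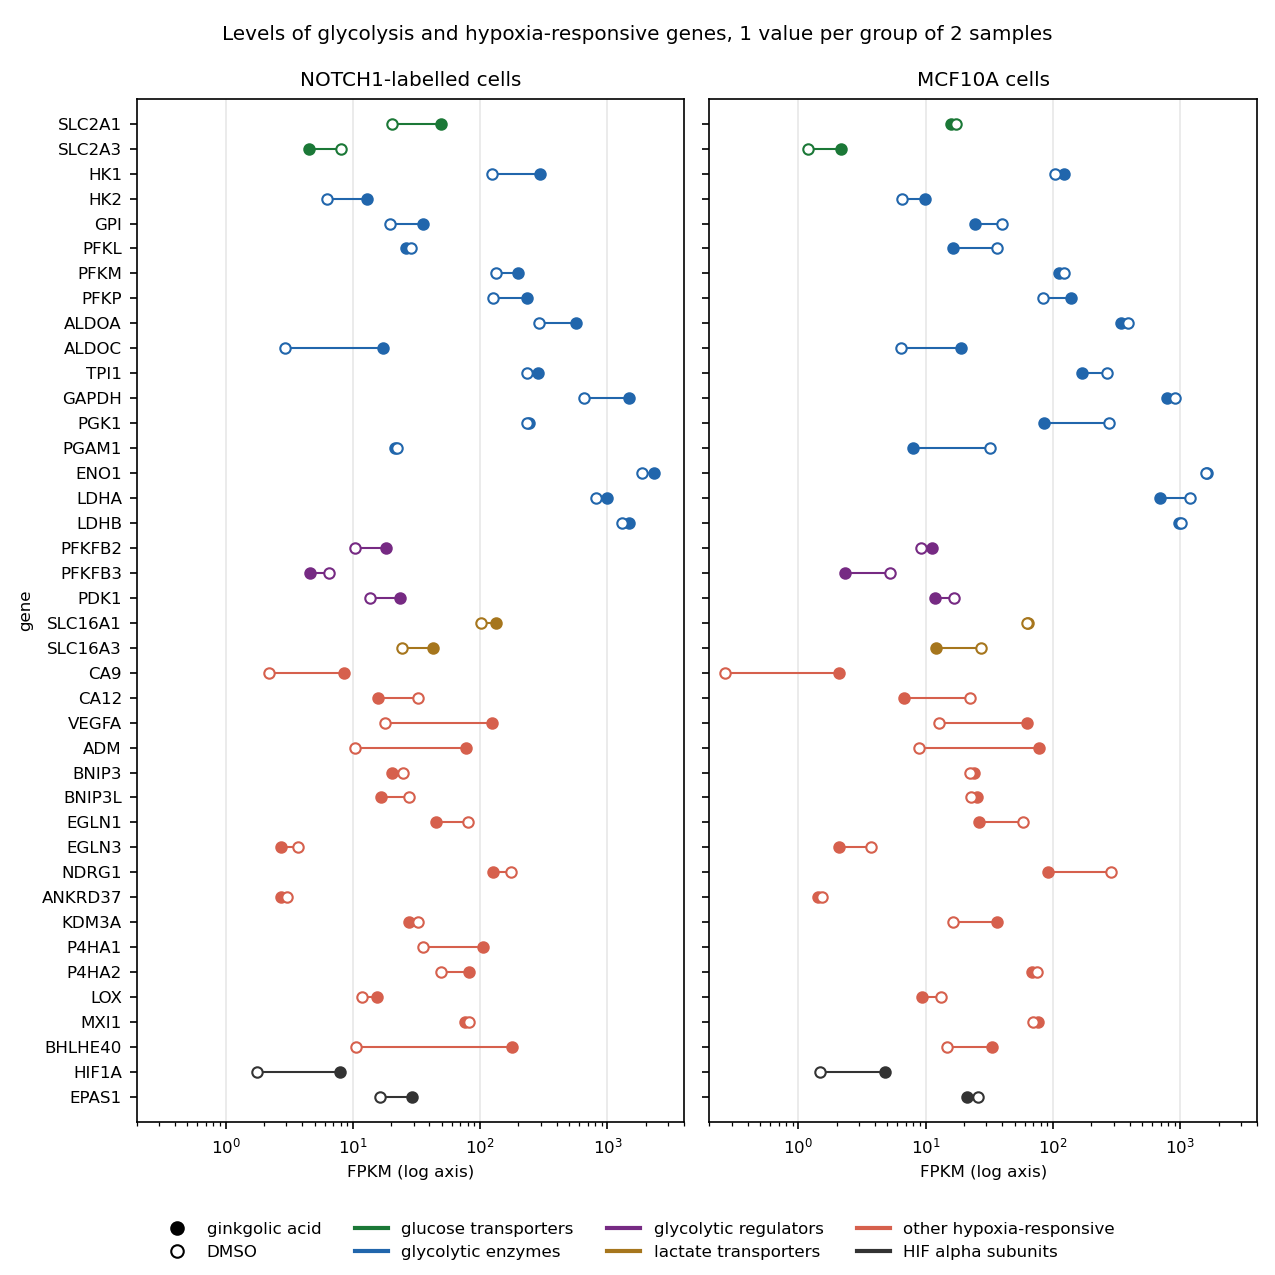
FPKM of each gene with a row of its own (log axis) with ginkgolic acid (filled) and DMSO (open) in NOTCH1-labelled cells (left panel) and MCF10A cells (right panel), 1 value per group. ADM, VEGFA, BHLHE40, CA9, ALDOC and HIF1A have the filled point at least 2-fold to the right in both panels. PGAM1, CA12, PGK1 and NDRG1 have it furthest to the left of the open point in MCF10A. There PGAM1 was at 7.94 FPKM with ginkgolic acid against 31.9 with DMSO.

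The genes that were higher with ginkgolic acid in both lines were ADM, VEGFA, BHLHE40, CA9, ALDOC and HIF1A, 6 of the 39 with a ratio in both, where 5.15% of 15582 genes were. ADM, which encodes the vasodilator peptide adrenomedullin, was at 77.8 FPKM with ginkgolic acid against 10.4 with DMSO in NOTCH1-labelled cells, and at 77.9 with ginkgolic acid against 8.83 with DMSO in MCF10A. That is 7.45-fold in NOTCH1-labelled cells and 8.82-fold in MCF10A. VEGFA, the main angiogenic growth factor, was at 123 FPKM with ginkgolic acid against 17.9 with DMSO in NOTCH1-labelled cells, or 6.89-fold, and at 62.4 with ginkgolic acid against 12.6 with DMSO in MCF10A, or 4.93-fold. VEGFA lies on chromosome 6 from 43737920 to 43754224 and ADM on chromosome 11 from 10326226 to 10328944 (hg19).

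BHLHE40 encodes a transcriptional repressor of the circadian and hypoxic responses, also called DEC1. It was at 179 FPKM with ginkgolic acid against 10.5 with DMSO in NOTCH1-labelled cells, 17.0-fold apart and the largest ratio of the set, and at 33.4 with ginkgolic acid against 14.8 with DMSO in MCF10A, 2.26-fold apart. CA9, a membrane carbonic anhydrase that exports acid from hypoxic cells, was at 8.58 FPKM with ginkgolic acid against 2.20 with DMSO in NOTCH1-labelled cells and at 2.09 with ginkgolic acid against 0.264 with DMSO in MCF10A. These are 3.89-fold and 7.91-fold, but the second rests on a DMSO level below 1 FPKM. ALDOC, an aldolase isozyme best known from brain, was at 17.2 FPKM with ginkgolic acid against 2.91 with DMSO in NOTCH1-labelled cells and at 18.9 with ginkgolic acid against 6.35 with DMSO in MCF10A, or 5.90-fold and 2.98-fold. The loci of ALDOC and CA9 carry rows of other genes, and that of BHLHE40 carries its antisense gene BHLHE40-AS1, whose reads are not known to have been kept apart by strand. ALDOC was, of the 15 glycolytic enzymes with a row of their own, the single gene higher in both lines.

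HIF1A, the oxygen-regulated subunit of HIF-1, had 2 rows at the same place on chromosome 14. Its own row was at 7.98 FPKM with ginkgolic acid against 1.76 with DMSO in NOTCH1-labelled cells and at 4.77 with ginkgolic acid against 1.48 with DMSO in MCF10A, or 4.52-fold and 3.23-fold. A second row that joins HIF1A with its neighbour SNAPC1 held 303 FPKM with ginkgolic acid against 184 with DMSO in NOTCH1-labelled cells and 227 with ginkgolic acid against 149 with DMSO in MCF10A, or 1.65-fold and 1.52-fold. The joined row lay above the own row in all 4 groups and had the smaller ratio in both lines. How the reads of HIF1A were divided between the 2 rows cannot be told from the tables. EPAS1, which encodes HIF-2 alpha, was at 29.4 FPKM with ginkgolic acid against 16.3 with DMSO in NOTCH1-labelled cells, 1.80-fold, and at 21.1 with ginkgolic acid against 25.9 with DMSO in MCF10A, a log2 ratio of −0.30.

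CA12, another membrane carbonic anhydrase, was the gene that was lower in both lines (4.11% of 15582 genes were). It was at 15.9 FPKM with ginkgolic acid against 32.3 with DMSO in NOTCH1-labelled cells and at 6.70 with ginkgolic acid against 22.2 with DMSO in MCF10A. This is 2.04-fold and 3.31-fold lower, the first just past the limit. The 2 carbonic anhydrases thus lay on opposite sides in both lines.

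To show what these genes carry at their starts, promoter windows of 300 bases, from 250 before the start to 50 after it, were taken from RefSeq (build GRCh38.p14). Windows were found for 36 of the 43 genes, and those of SLC2A3, PFKFB2, SLC16A1, VEGFA, BNIP3L, NDRG1 and LOXL2 were not. Printed are the genes beyond 2-fold in the same direction in both lines that had a window. They are ADM at chr11:10304823-10305122 (plus strand), BHLHE40 at chr3:4979187-4979486 (plus), CA9 at chr9:35673678-35673977 (plus), ALDOC at chr17:28576846-28577145 (minus), HIF1A at chr14:61695263-61695562 (plus) and CA12 at chr15:63381797-63382096 (minus). Each is written 5′ to 3′ on the gene's own strand. Capitals mark the core of the hypoxia response element, ACGTG or GCGTG, and the same letters read from the other strand, CACGT or CACGC; where matches overlap, as in CACGTG, they count as 1 site.
ADM: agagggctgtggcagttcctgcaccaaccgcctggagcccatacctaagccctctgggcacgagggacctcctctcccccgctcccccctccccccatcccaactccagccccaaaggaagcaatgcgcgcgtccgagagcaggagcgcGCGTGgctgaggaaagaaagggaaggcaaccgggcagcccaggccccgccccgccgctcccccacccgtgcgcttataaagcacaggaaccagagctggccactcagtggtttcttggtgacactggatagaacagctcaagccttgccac
BHLHE40: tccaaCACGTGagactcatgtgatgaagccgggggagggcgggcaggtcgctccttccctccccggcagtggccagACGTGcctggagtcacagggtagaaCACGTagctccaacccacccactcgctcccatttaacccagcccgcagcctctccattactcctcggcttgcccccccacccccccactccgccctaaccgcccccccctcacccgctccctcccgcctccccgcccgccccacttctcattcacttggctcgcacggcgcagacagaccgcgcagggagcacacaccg
CA9: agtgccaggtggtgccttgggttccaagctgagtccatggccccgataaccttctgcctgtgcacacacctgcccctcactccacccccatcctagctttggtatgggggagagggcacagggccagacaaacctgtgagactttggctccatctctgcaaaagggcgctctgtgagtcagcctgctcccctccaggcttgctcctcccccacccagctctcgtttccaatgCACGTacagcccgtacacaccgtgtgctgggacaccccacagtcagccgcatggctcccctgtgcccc
ALDOC: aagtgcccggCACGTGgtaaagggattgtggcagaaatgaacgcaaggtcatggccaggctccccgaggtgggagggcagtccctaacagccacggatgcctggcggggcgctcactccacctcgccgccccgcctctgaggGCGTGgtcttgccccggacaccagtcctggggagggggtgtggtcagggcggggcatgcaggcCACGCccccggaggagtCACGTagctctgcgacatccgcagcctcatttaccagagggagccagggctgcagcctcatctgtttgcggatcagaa
HIF1A: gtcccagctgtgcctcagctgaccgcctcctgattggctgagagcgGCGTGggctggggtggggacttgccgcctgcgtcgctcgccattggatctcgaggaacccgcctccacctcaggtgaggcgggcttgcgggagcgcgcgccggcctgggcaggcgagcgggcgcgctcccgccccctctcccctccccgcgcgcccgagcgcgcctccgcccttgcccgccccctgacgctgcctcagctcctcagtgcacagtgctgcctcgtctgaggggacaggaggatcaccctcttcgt
CA12: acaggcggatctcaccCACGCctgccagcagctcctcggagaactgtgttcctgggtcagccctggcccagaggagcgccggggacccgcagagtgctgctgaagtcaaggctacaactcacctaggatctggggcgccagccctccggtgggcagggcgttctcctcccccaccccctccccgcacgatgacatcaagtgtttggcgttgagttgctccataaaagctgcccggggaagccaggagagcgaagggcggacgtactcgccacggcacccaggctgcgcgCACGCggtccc

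ALDOC held 4 such sites, BHLHE40 3, CA12 2, and ADM, CA9 and HIF1A 1 each. The CA9 match began at −18, close to the start, and that of ADM at −101. BHLHE40 had matches from −245, −174 and −149, and ALDOC had its last at −28. CA12, the lower gene, had matches at −234 and 40. Over the 36 windows, 26 held at least 1 site, or 72.2%. Of 10159 windows of genes with at least 1 FPKM in a group, 59.1% did, and of all 27305 windows 48.4%. Among glycolytic enzymes it was 11 of 16, and among other hypoxia-responsive genes 10 of 13. The 5 genes with 4 or more sites were ALDOC, PGK1, LDHA and LOX with 4 each and BNIP3 with 5, and of these only ALDOC was higher in either line. A match is a run of letters and not a binding site.

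The glycolytic enzymes differed between the lines. In NOTCH1-labelled cells 13 of 15 enzymes had a log2 ratio above 0, 4 were higher and 0 lower, and the median was 0.59. In MCF10A 5 of 15 were above 0, 1 was higher and 3 lower, and the median was −0.20. All 15 had the larger ratio in NOTCH1-labelled cells, with differences between 0.16 and 1.95 and a median of 1.00 on the log2 scale. The tables as a whole lean the same way. Of all genes, 52.1% had a ratio above 0 in NOTCH1-labelled cells and 52.1% in MCF10A. Among genes with at least 20 FPKM in a group, a level that 13 of the 15 enzymes reached in both tables, it was 67.4% in NOTCH1-labelled cells and 39.0% in MCF10A. Of these well expressed genes, 20.6% were higher and 6.60% lower in NOTCH1-labelled cells, and 9.74% higher and 15.8% lower in MCF10A. Their median log2 ratios were 0.33 in NOTCH1-labelled cells and −0.20 in MCF10A, so the median of the enzymes lay above theirs in NOTCH1-labelled cells and at the same value in MCF10A. Of 15582 genes, 57.2% had the larger ratio in NOTCH1-labelled cells, and of the 4442 genes with at least 20 FPKM in both tables, 75.3% did, with a median difference of 0.48. A difference of at least 1 was found for 7 of the 15 enzymes, against 22.7% of those 4442 genes and 21.5% of all 15582.

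Following the pathway, the first reaction is that of hexokinase, which traps glucose as its phosphate. HK1, the widely expressed form, was at 295 FPKM with ginkgolic acid against 124 with DMSO in NOTCH1-labelled cells, 2.38-fold, and at 123 with ginkgolic acid against 104 with DMSO in MCF10A, 1.18-fold. HK2, the inducible form, was at 13.0 FPKM with ginkgolic acid against 6.29 with DMSO in NOTCH1-labelled cells and at 9.84 with ginkgolic acid against 6.49 with DMSO in MCF10A. The 2.06-fold ratio of HK2 in NOTCH1-labelled cells was just past the limit. HK1 made up over 92% of hexokinase FPKM in all 4 groups, from 92.6% to 95.8%. GPI, the isomerase that follows, was at 35.5 FPKM with ginkgolic acid against 19.6 with DMSO in NOTCH1-labelled cells and at 24.4 with ginkgolic acid against 40.1 with DMSO in MCF10A, so it was 1.81-fold above DMSO in the first line and 1.64-fold below it in the second.

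Phosphofructokinase catalyses the committed step and has 3 subunit genes. PFKL was at 26.1 FPKM with ginkgolic acid against 28.7 with DMSO in NOTCH1-labelled cells and at 16.4 with ginkgolic acid against 36.1 with DMSO in MCF10A, where it was 2.20-fold lower. PFKM was at 198 FPKM with ginkgolic acid against 132 with DMSO in NOTCH1-labelled cells and at 111 with ginkgolic acid against 122 with DMSO in MCF10A, and PFKM holds an annotated small RNA, whose reads the tables do not separate. PFKP was at 234 FPKM with ginkgolic acid against 127 with DMSO in NOTCH1-labelled cells and at 138 with ginkgolic acid against 83.9 with DMSO in MCF10A, or 1.84-fold and 1.65-fold. In both lines the makeup moved the same way. PFKP was 51.0% of phosphofructokinase FPKM with ginkgolic acid and 44.2% with DMSO in NOTCH1-labelled cells, and 52.1% with ginkgolic acid against 34.7% with DMSO in MCF10A. PFKL was 5.70% with ginkgolic acid against 9.96% with DMSO in NOTCH1-labelled cells. In MCF10A it was 6.20% with ginkgolic acid against 14.9% with DMSO. The locus of PFKM also carries a row of SENP1 in both tables. That of PFKP carries a row of PITRM1 in the NOTCH1-labelled table only, where it is longer than in MCF10A.

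Below the committed step, ALDOA, the main aldolase, was at 564 FPKM with ginkgolic acid against 291 with DMSO in NOTCH1-labelled cells, 1.94-fold and just short of the limit, and at 339.6 with ginkgolic acid against 390.1 with DMSO in MCF10A. TPI1, which interconverts the triose phosphates, was at 282 FPKM with ginkgolic acid against 234 with DMSO in NOTCH1-labelled cells and at 169 with ginkgolic acid against 267 with DMSO in MCF10A. GAPDH, often used as a reference gene, was at 1464 FPKM with ginkgolic acid against 658 with DMSO in NOTCH1-labelled cells, 2.22-fold, and at 784 with ginkgolic acid against 907 with DMSO in MCF10A, a log2 ratio of −0.21. GAPDH has many processed copies in the genome, and the 57 rows named as its pseudogenes in the NOTCH1-labelled table summed to 19.3 FPKM with ginkgolic acid against 15.1 with DMSO, small beside the gene.

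PGK1 and PGAM1 had the lowest ratios of the 15 enzymes in MCF10A. PGK1, the first enzyme of glycolysis to yield ATP (chromosome X, 77320684 to 77384793), was at 241 FPKM with ginkgolic acid against 232 with DMSO in NOTCH1-labelled cells, and at 85.5 with ginkgolic acid against 277 with DMSO in MCF10A, 3.24-fold lower. PGAM1, the phosphoglycerate mutase, was at 21.5 FPKM with ginkgolic acid against 22.3 with DMSO in NOTCH1-labelled cells, and at 7.94 with ginkgolic acid against 31.9 with DMSO in MCF10A, 4.02-fold lower. In NOTCH1-labelled cells both were nearly level. PGAM1 has processed copies, and its 12 pseudogene rows summed to 2.85 FPKM with ginkgolic acid against 4.82 with DMSO in NOTCH1-labelled cells and to 3.16 with ginkgolic acid against 2.02 with DMSO in MCF10A. How reads were shared between PGAM1 and these copies is not given in the sources used here.

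At the end of the pathway, ENO1, the main enolase, had the highest level of the set, at 2339 FPKM with ginkgolic acid against 1867 with DMSO in NOTCH1-labelled cells and 1623 with ginkgolic acid against 1605 with DMSO in MCF10A. ENO1 holds an annotated small RNA. ENO2, known as the neuronal enolase, was found only in a row joined with LRRC23, at 8.45 FPKM with ginkgolic acid against 8.85 with DMSO in NOTCH1-labelled cells and 11.8 with ginkgolic acid against 3.58 with DMSO in MCF10A. That row was 3.31-fold higher in MCF10A and level in NOTCH1-labelled cells, and which of its genes differed cannot be told apart. LDHA, the lactate dehydrogenase subunit raised by HIF, was at 984 FPKM with ginkgolic acid against 809 with DMSO in NOTCH1-labelled cells and at 693 with ginkgolic acid against 1187 with DMSO in MCF10A. LDHB, the other subunit, was at 1481 FPKM with ginkgolic acid against 1312 with DMSO in NOTCH1-labelled cells and at 968 with ginkgolic acid against 1007 with DMSO in MCF10A. LDHA was 39.9% of lactate dehydrogenase FPKM with ginkgolic acid and 38.1% with DMSO in NOTCH1-labelled cells, and 41.8% with ginkgolic acid against 54.1% with DMSO in MCF10A, so MCF10A with DMSO was the group in which LDHA exceeded LDHB. The 6 LDHA pseudogene rows summed to between 41.2 and 58.1 FPKM in the 4 groups.

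**Figure D2:**
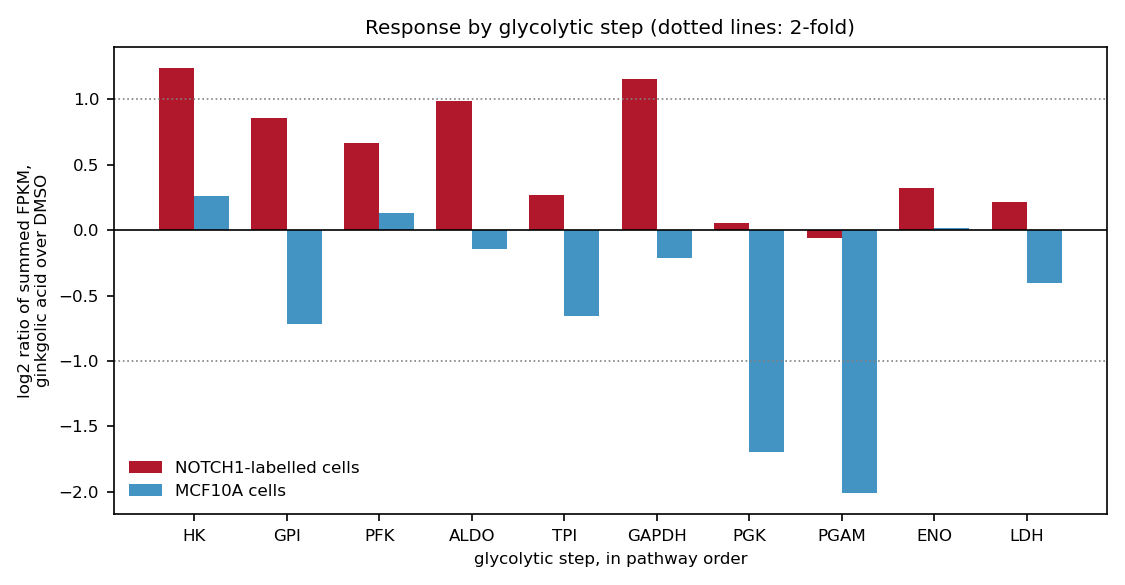
Log2 ratio of ginkgolic acid over DMSO for each glycolytic step in pathway order, with FPKM summed over the genes of a step (HK1 and HK2, the 3 phosphofructokinases, ALDOA and ALDOC, LDHA and LDHB), in NOTCH1-labelled and MCF10A cells. The bars of NOTCH1-labelled cells lie above those of MCF10A at all 10 steps, with hexokinase at 1.24 and 0.26 and phosphoglycerate mutase at −0.06 and −2.01.

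The levels of the enzymes can be set side by side across the separately normalized tables. Most were above MCF10A in NOTCH1-labelled cells with ginkgolic acid and below it with DMSO, mostly by less than 2-fold. With ginkgolic acid, 14 of 15 were at a higher FPKM in NOTCH1-labelled than in MCF10A cells, with a median log2 ratio of 0.73. Of all 19201 genes compared, 11924 were, with a median of 0.29. With DMSO, 5 of 15 enzymes were, with a median of −0.26, and 10711 of 18181 genes were, with a median of 0.20. The shares among well expressed genes are not given here. These levels carry an unknown factor between the tables.

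**Figure D3:**
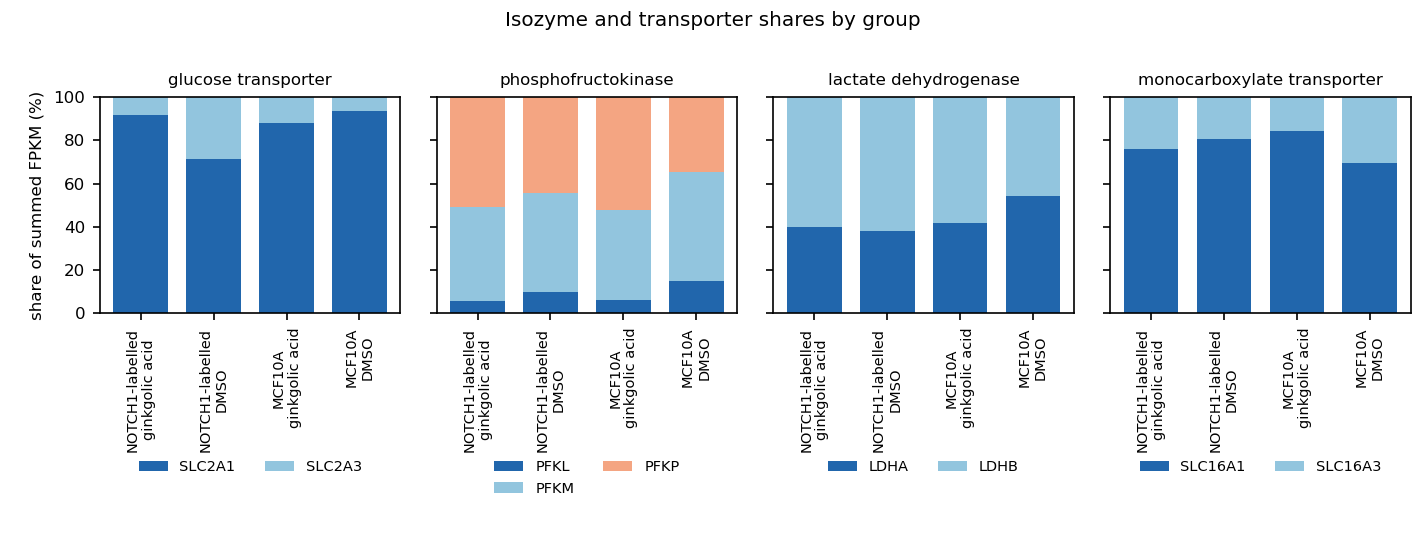
Share of the summed FPKM (%) taken by each gene of 4 families in the 4 groups, from left to right NOTCH1-labelled cells with ginkgolic acid and with DMSO and MCF10A cells with ginkgolic acid and with DMSO. The PFKP share is larger with ginkgolic acid in both lines, and the LDHA share passes 50% in MCF10A with DMSO, at 54.1%.

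Of the regulators of flux, PFKFB2 and PFKFB3 set the level of fructose-2,6-bisphosphate, an activator of phosphofructokinase. PFKFB2 was at 18.2 FPKM with ginkgolic acid against 10.4 with DMSO in NOTCH1-labelled cells and at 11.2 with ginkgolic acid against 9.17 with DMSO in MCF10A. PFKFB3, the form induced by hypoxia, was at 4.58 FPKM with ginkgolic acid against 6.50 with DMSO in NOTCH1-labelled cells and at 2.31 with ginkgolic acid against 5.27 with DMSO in MCF10A, where it was 2.28-fold lower. Both genes were closer to their DMSO level in NOTCH1-labelled cells than 2-fold. PFKFB4 was found only in a row joined with UCN2, at 3.31 FPKM with ginkgolic acid against 3.79 with DMSO in NOTCH1-labelled cells and 3.11 with ginkgolic acid against 3.06 with DMSO in MCF10A. PDK1, a pyruvate dehydrogenase kinase, was at 23.6 FPKM with ginkgolic acid against 13.7 with DMSO in NOTCH1-labelled cells. In MCF10A it was at 11.8 with ginkgolic acid against 16.6 with DMSO. PFKFB3 and PDK1 hold annotated small RNAs. No regulator was higher in either line.

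The transporters at the ends of the pathway had no common direction. SLC2A1, the glucose transporter GLUT1, was at 49.3 FPKM with ginkgolic acid against 20.2 with DMSO in NOTCH1-labelled cells, 2.45-fold, and at 15.9 with ginkgolic acid against 17.3 with DMSO in MCF10A. SLC2A3, or GLUT3, was at 4.5 FPKM with ginkgolic acid against 8.06 with DMSO in NOTCH1-labelled cells and at 2.16 with ginkgolic acid against 1.19 with DMSO in MCF10A, the reverse of SLC2A1 in both lines, at low levels and on a crowded locus. The 2 glucose transporters thus lay on opposite sides of DMSO in each line. SLC16A1, the lactate transporter MCT1, was at 134 FPKM with ginkgolic acid against 102 with DMSO in NOTCH1-labelled cells and at 64.0 with ginkgolic acid against 62.3 with DMSO in MCF10A. SLC16A3, the lactate exporter MCT4, was at 42.7 FPKM with ginkgolic acid against 24.4 with DMSO in NOTCH1-labelled cells and at 12.03 with ginkgolic acid against 27.2 with DMSO in MCF10A, where it was 2.26-fold lower. SLC16A3 had the second largest difference between lines in the whole set, 1.98 on the log2 scale, after BHLHE40 with 2.91. It holds an annotated small RNA, and its locus also carries a row of CSNK1D in both tables. The share of SLC16A3 in the FPKM of both lactate transporters was 24.1% with ginkgolic acid against 19.3% with DMSO in NOTCH1-labelled cells and 15.8% with ginkgolic acid against 30.4% with DMSO in MCF10A.

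The 17 other hypoxia-responsive genes had no common direction in either line. In NOTCH1-labelled cells 5 of 16 were higher and 1 lower, with a median log2 ratio of −0.12, and in MCF10A 5 of 15 were higher and 3 lower, with a median of 0.11. Over all genes 18.9% were higher and 19.0% lower in NOTCH1-labelled cells, and 24.2% higher and 15.4% lower in MCF10A. Thus the medians of the glycolytic enzymes lay above those of the other hypoxia-responsive genes in NOTCH1-labelled cells, 0.59 and −0.12, and below them in MCF10A, −0.20 and 0.11. The means behaved differently, because a few hypoxia-responsive genes had very large ratios: for NOTCH1-labelled cells they were 0.68 for the enzymes and 0.64 for the other genes. Between the lines, 8 of 15 of the other hypoxia-responsive genes had the larger ratio in NOTCH1-labelled cells, with a median difference of 0.31. Over all genes with at least 1 FPKM the share was 57.2% and the median 0.22, and with at least 5 FPKM 72.2% and 0.47, so the list lay between these medians.

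The oxygen sensors themselves were not among the higher genes. EGLN1, the prolyl hydroxylase PHD2, was at 44.9 FPKM with ginkgolic acid against 80.7 with DMSO in NOTCH1-labelled cells and at 26.2 with ginkgolic acid against 58.2 with DMSO in MCF10A, 1.80-fold and 2.22-fold lower. EGLN3, or PHD3, a HIF target that feeds back on HIF, was at 2.72 FPKM with ginkgolic acid against 3.68 with DMSO in NOTCH1-labelled cells and at 2.09 with ginkgolic acid against 3.73 with DMSO in MCF10A. Both hydroxylases were therefore at lower levels with ginkgolic acid in both lines, short of the 2-fold limit except for EGLN1 in MCF10A. ANKRD37, a small ankyrin protein gene and a direct HIF-1 target, was at 2.74 FPKM with ginkgolic acid against 3.05 with DMSO in NOTCH1-labelled cells and at 1.43 with ginkgolic acid against 1.52 with DMSO in MCF10A. NDRG1, a stress-induced gene often used as a marker of hypoxia, was at 127 FPKM with ginkgolic acid against 176 with DMSO in NOTCH1-labelled cells and at 90.6 with ginkgolic acid against 287 with DMSO in MCF10A, 3.17-fold lower in the second.

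BNIP3 and BNIP3L encode mitophagy receptors of the outer mitochondrial membrane. BNIP3 was at 20.5 FPKM with ginkgolic acid against 24.9 with DMSO in NOTCH1-labelled cells and at 23.9 with ginkgolic acid against 22.2 with DMSO in MCF10A. BNIP3L was at 16.5 FPKM with ginkgolic acid against 27.7 with DMSO in NOTCH1-labelled cells and at 25.2 with ginkgolic acid against 22.5 with DMSO in MCF10A. Neither passed 2-fold in either line, and BNIP3 also has pseudogene rows, which summed to between 3.33 and 6.27 FPKM.

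KDM3A, a histone H3 lysine 9 demethylase, was at 27.9 FPKM with ginkgolic acid against 32.6 with DMSO in NOTCH1-labelled cells and at 36.3 with ginkgolic acid against 16.5 with DMSO in MCF10A, where it was 2.21-fold higher. MXI1, a MAX partner that opposes MYC, was at 76.5 FPKM with ginkgolic acid against 81.1 with DMSO in NOTCH1-labelled cells and at 76.4 with ginkgolic acid against 69.7 with DMSO in MCF10A. SLC2A3, CA9 and KDM3A were the 3 genes with a ratio lower by at least 1 in NOTCH1-labelled cells than in MCF10A, where 22.5% of 15582 genes were, and 13 of 39 were higher by at least 1, where 21.5% were.

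Genes of collagen maturation completed the list. P4HA1, the collagen prolyl hydroxylase subunit, was at 106 FPKM with ginkgolic acid against 35.3 with DMSO in NOTCH1-labelled cells, 3.00-fold. In MCF10A it shared a row with ECD, which was at 100.1 FPKM with ginkgolic acid against 43.8 with DMSO, or 2.29-fold. P4HA2, its paralogue, was at 82.2 FPKM with ginkgolic acid against 49.1 with DMSO in NOTCH1-labelled cells and at 68.1 with ginkgolic acid against 74.8 with DMSO in MCF10A. P4HA1 and P4HA2 hold annotated small RNAs. LOX, which cross-links collagen, was at 15.4 FPKM with ginkgolic acid against 11.9 with DMSO in NOTCH1-labelled cells and at 9.39 with ginkgolic acid against 13.3 with DMSO in MCF10A. LOXL2, of the same family, shared a row with ENTPD4, at 30.4 FPKM with ginkgolic acid against 34.1 with DMSO in NOTCH1-labelled cells and at 20.4 with ginkgolic acid against 44.2 with DMSO in MCF10A, a log2 ratio of −1.11.

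**Figure D4:**
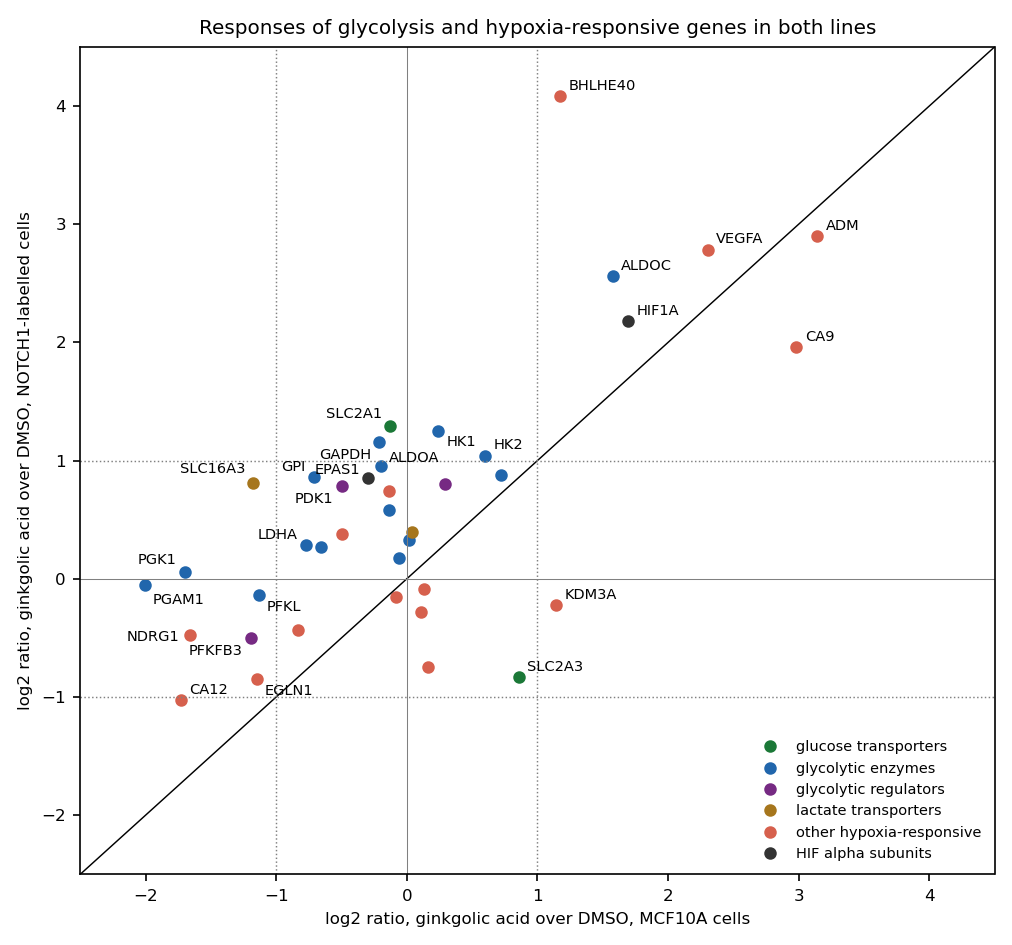
Log2 ratio of ginkgolic acid over DMSO in NOTCH1-labelled cells (vertical axis) against that in MCF10A cells (horizontal axis) for the 39 genes with a ratio in both, coloured by role; dotted lines mark 2-fold and the diagonal marks equal ratios. Of the 39 genes, 31 lie above the diagonal, among them all 15 glycolytic enzymes. Most genes outside the set would lie there too: 57.2% of all 15582 genes had the larger ratio in NOTCH1-labelled cells. Among genes with at least 5 FPKM in both lines the share was 72.2%, and with at least 20 FPKM it was 75.3%. ADM, VEGFA, BHLHE40, CA9, ALDOC and HIF1A lie in the upper right field.

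Genes outside the set, listed by pathway, place these values, and their counts are to be read against the same shares of all genes, 18.9% higher and 19.0% lower in NOTCH1-labelled cells and 24.2% higher and 15.4% lower in MCF10A. Of 33 further glycolytic genes, 14 had a ratio in NOTCH1-labelled cells, with 4 higher and 2 lower, and 16 in MCF10A, with 2 higher and 2 lower. Their median log2 ratio was −0.23 in NOTCH1-labelled cells, where 8 of the 14 lay below 0. In MCF10A it was −0.35, and 10 of the 16 lay below 0. PKM, the pyruvate kinase that ends glycolysis, was at 770.4 FPKM with ginkgolic acid against 942 with DMSO in NOTCH1-labelled cells and at 395 with ginkgolic acid against 841 with DMSO in MCF10A, a log2 ratio of −1.09. PKM was named after its values were seen, as the step missing from the set. PDK4, a pyruvate dehydrogenase kinase of fasting, was at 133 FPKM with ginkgolic acid against 16.2 with DMSO in NOTCH1-labelled cells and at 123 with ginkgolic acid against 36.1 with DMSO in MCF10A. It thus exceeded PDK1 in level in all 4 groups. ENO3, the muscle enolase, had log2 ratios of 1.58 and −0.79, LDHAL6B of −3.87 and −0.92, and PDK3 of −0.17 and −2.33 in NOTCH1-labelled and MCF10A cells. LDHAL6B was at low levels, 0.0986 FPKM with ginkgolic acid against 1.44 with DMSO in NOTCH1-labelled cells. In MCF10A it was at 0.444 with ginkgolic acid against 0.838 with DMSO. PDK3 was at 0.772 FPKM with ginkgolic acid against 3.88 with DMSO in MCF10A.

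In the pentose phosphate pathway, which makes NADPH, 2 of 8 genes were higher and 1 lower in NOTCH1-labelled cells, and 0 of 8 passed 2-fold in MCF10A. TKT, the transketolase, was at 747 FPKM with ginkgolic acid against 289 with DMSO in NOTCH1-labelled cells and at 353 with ginkgolic acid against 271 with DMSO in MCF10A. TKTL1 had log2 ratios of −2.14 and 0.99 in NOTCH1-labelled and MCF10A cells, PGLS of 1.00 and −0.83, and RPIA of −0.73 and −0.81. TKTL1 was at low levels, 0.71 FPKM with ginkgolic acid against 3.14 with DMSO in NOTCH1-labelled cells. In glycogen metabolism, 2 of 11 genes were higher in NOTCH1-labelled and 1 of 11 in MCF10A cells, and 0 were lower. PPP1R3B, a glycogen-targeting phosphatase subunit, had 1.21 and 1.05, PYGB 1.30 and −0.43, PYGL 0.94 and −0.11, GYG1 −0.32 and −0.89 and UGP2 0.15 and −0.69. All 11 glycogen genes had the larger ratio in NOTCH1-labelled cells, as the glycolytic enzymes did, among tables that lean this way.

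Of 14 further HIF pathway genes, 3 were higher and 1 lower in NOTCH1-labelled cells, and 2 were higher and 3 lower in MCF10A. SIAH2, a ubiquitin ligase that acts on the prolyl hydroxylases, was at 30.7 FPKM with ginkgolic acid against 6.33 with DMSO in NOTCH1-labelled cells and at 15.3 with ginkgolic acid against 9.02 with DMSO in MCF10A. HIF1AN, the asparaginyl hydroxylase that restrains HIF, was at 5.62 FPKM with ginkgolic acid against 10.5 with DMSO in NOTCH1-labelled cells and at 3.25 with ginkgolic acid against 11.3 with DMSO in MCF10A. EGLN2, or PHD1, was at 7.92 FPKM with ginkgolic acid against 8.0 with DMSO in NOTCH1-labelled cells and at 5.03 with ginkgolic acid against 15.5 with DMSO in MCF10A. In NOTCH1-labelled cells EGLN2 was level, and HIF1AN did not pass 2-fold. In MCF10A both were lower, with log2 ratios of −1.81 for HIF1AN and −1.63 for EGLN2. SIAH1 had log2 ratios of 1.20 and 0.92 in NOTCH1-labelled and MCF10A cells, the coactivator gene CREBBP 1.23 and 1.01, and HIF3A −0.41 and 2.0. HIF3A was at low levels, 2.52 FPKM with ginkgolic acid against 0.631 with DMSO in MCF10A.

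Of 30 further hypoxia-induced genes, 10 were higher and 2 lower in NOTCH1-labelled cells and 9 were higher and 2 lower in MCF10A. Over all genes 18.9% were higher in NOTCH1-labelled cells and 24.2% in MCF10A, and among genes with at least 5 FPKM 19.5% and 12.4% were. The count of higher genes in MCF10A was near the first of its shares and above the second. The medians of the list were 0.30 in NOTCH1-labelled cells and 0.42 in MCF10A, those of all genes 0.06 in each, and those of genes with at least 5 FPKM 0.25 and −0.18. DDIT4, an inhibitor of mTORC1 raised by several stresses, was at 2276 FPKM with ginkgolic acid against 270.2 with DMSO in NOTCH1-labelled cells and at 998 with ginkgolic acid against 364 with DMSO in MCF10A. CXCR4, a chemokine receptor, was at 10.0 FPKM with ginkgolic acid against 2.0 with DMSO in NOTCH1-labelled cells and at 5.55 with ginkgolic acid against 1.22 with DMSO in MCF10A. Both DDIT4 and CXCR4 were higher in both lines. STC1 had log2 ratios of −3.32 and 0.38 and GPR146 of −0.72 and 3.15 in NOTCH1-labelled and MCF10A cells, both at low levels.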

How the data were processed

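Total RNA of 8 samples was taken with an RNeasy kit, and per the labels' protocols sequencing used libraries of the ScriptSeq Complete Gold type. The submitters' processing notes list Cuffdiff 2.1.1, Cufflinks 2.1.1, TopHat2 2.0.8b, Bowtie2 2.1.0 and the build hg19 (GRCh37). Their annotation and parameters, and how samples were pooled into group values, are not stated in the sources used here. FPKM were deposited by the authors in 2 tables that were normalized separately, with 1 value per gene and group, so replicate error and depth are unknown.

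Unnamed rows, rows that join several genes, rows spanning under 200 bases, rows off the main chromosomes and symbols with several rows were removed, leaving 43334 genes for NOTCH1-labelled and 43308 for MCF10A cells. A gene needed at least 1 FPKM in either group and both values above 0, and log2 of ginkgolic acid over DMSO was taken with no pseudocount. In the absence of replicate values a size rule of 2-fold stood in for a test. The genes, their lists and the rules were chosen with earlier results of these data known. All 43 genes are named, and of each other list the 3 genes with the largest absolute ratio in each line, apart from some that are not reported here. Small RNAs within genes came from GENCODE 29. Alternative minimums, pseudocounts, folds and centrings were tried. The code was tested on simulated data. Python 3.11.15, numpy 2.4.6, pandas 2.3.3 and matplotlib 3.10.9 were used.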

Additional observations from a re-analysis of the deposited data

How the results depend on the processing

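The summaries of the glycolytic enzymes, the other hypoxia-responsive genes, all members and all genes were recomputed with other settings. Those of the smaller lists and of the lists outside the set were not. A median counted as moved past 0.1 on the log2 scale, and a count when it changed by more than 1.5-fold. Of 160 values, 115 held, 43 moved and 2 changed sign. Some of the values that held could not change. Every member with a row reached 1 FPKM, so dropping the minimum left the member summaries as they were. The median of all genes cancels in the difference between the medians of the 2 lists. The median of the other hypoxia-responsive genes in NOTCH1-labelled cells, −0.12, turned to 0.15 with a minimum of 5 FPKM and to 0.64 with the mean, was −0.26 after removal of the median of all genes, and was −0.28 without genes on loci that carry other named rows (shared loci). That setting and the counting of joined rows were chosen after seeing the data. That of the glycolytic enzymes, 0.59, was 0.45 after removal of the median, 0.86 without genes that hold small RNAs, 0.45 with joined rows and 0.91 without shared loci. In MCF10A the enzymes, at −0.20, had −0.090 after removal of the median and −0.46 without shared loci, and the other genes, at 0.11, had 0.34 with the mean and 0.22 after removal of the median. The gap of the lists (other genes minus enzymes), −0.70 in NOTCH1-labelled cells, was −0.44 with 5 FPKM, −0.045 with the mean, −1.05 without small RNA holders and −1.19 without shared loci; in MCF10A, 0.31, it was 0.63 with the mean and 0.57 without shared loci. The difference between lines was 0.75 for the enzymes and 0.058 for the other genes after removal of the median, 1.26 for the enzymes without shared loci, and 0.12 for the other genes without small RNA holders. Over all members it was 0.70, and 0.88 with 5 FPKM, 0.45 after removal of the median, 0.51 without small RNA holders and 1.00 without shared loci.

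At 1.5-fold, 8 enzymes were higher in NOTCH1-labelled cells, 3 higher and 6 lower in MCF10A, and 3 other genes lower in NOTCH1-labelled cells. Without shared loci, 2 enzymes and 2 other genes were higher in NOTCH1-labelled cells, and 0 enzymes and 3 other genes in MCF10A. With joined rows 2 enzymes were higher in MCF10A, and with a pseudocount of 1 FPKM 0 other genes were lower in NOTCH1-labelled cells. Over all genes in NOTCH1-labelled cells, 3703 were higher and 3721 lower; these were 1938 and 954 with 5 FPKM and 6101 and 5699 at 1.5-fold, and 6785 were lower with no minimum. In MCF10A, 4314 were higher and 2741 lower, with 1175 and 1618 at 5 FPKM, 8295 higher with no minimum and 4783 lower at 1.5-fold. Of single members, HK2 fell short of 2-fold in NOTCH1-labelled cells with a pseudocount, at 0.94, and after removal of the median, at 0.90. CA12 in NOTCH1-labelled cells, at −0.98, and PFKFB3 in MCF10A, at −0.92, fell short with a pseudocount. The causes were not tested. No paired analysis was possible because the tables hold 1 value per group, and for the same reason no replicate could be left out.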

Other observations

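The rows of each table run through the chromosomes in order and then start again at chromosome 1, and the labels do not say what divides the 2 runs. The first run held 4563 of 59662 rows in the NOTCH1-labelled and 14437 of 70227 in the MCF10A table. None of these was at 0 in both groups, against 13466 and 13514 rows of the second run that were. In the first run 2388 NOTCH1-labelled and 3238 MCF10A rows had a ratio, and 2175 and 11199 were at 0 in 1 group. Among those with a ratio the smallest absolute log2 ratio was 0.54 and 0.37, whereas 12589 and 14546 rows of the second run were also at least 2-fold apart. In the NOTCH1-labelled table the first run held 11 of the 43 genes, SLC2A1, HK1, HK2, GPI, ALDOA, GAPDH, CA12, VEGFA, ADM, P4HA1 and BHLHE40. In the MCF10A table it held 13, HK2, GPI, PFKL, TPI1, PGK1, PGAM1, LDHA, PFKFB3, CA12, VEGFA, ADM, EGLN1 and NDRG1. VEGFA, ADM, CA12, HK2 and GPI were in the first run of both tables, while CA9, ALDOC and HIF1A, which were beyond 2-fold in both lines, were in the second run of both.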
